A study of Mus musculus with 2 samples.

Results

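The genes described here are components and targets of the WNT and beta-catenin pathway, measured in mouse hepatocytes that did or did not carry an activated form of ezrin. A list of 50 gene symbols defined them, and a probe set counted when its annotation named that gene alone. Of the 50 genes, 49 had such a probe set (119 probe sets in all), out of 18193 genes and 34945 singly annotated probe sets on the array. Tcf7 had none and was not analysed here.

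The samples were hepatocytes from livers of male FVB mice that were 6 to 8 weeks old. A hydrodynamic tail vein injection, in which a large volume is pushed quickly into the blood, delivered 10 µg of PT3EF5α EzrinT567D and 0.8 µg of pCMV/SB in 2 ml of saline. The protein ezrin ties cortical actin to the cell membrane, and T567D mimics its activating phosphorylation with an acidic residue. pCMV/SB supplies the Sleeping Beauty transposase, which inserts the transposon into the genome of the cells it reaches. Cells were separated by GFP, which the labels equate with EzrinT567D, 1 week after the injection, and the negative and the positive group each hold 1 array. Both groups therefore come from injected mice, and hepatocytes from uninjected mice were not analysed here. The labels disagree on diet and time. The growth protocol names chow for both samples. The description fields instead give a time of 2 months for both and assign fast food to the positive sample alone. Whether both fractions came from the same livers, and from how many, is not given in the sources used here. With 1 array in each group there is no test between groups and no replicate error. Diet, batch and group cannot be told apart.

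WNT proteins are secreted ligands that bind Frizzled receptors together with the co-receptors LRP5 and LRP6. Without a ligand, a destruction complex of APC, AXIN, GSK3 and casein kinase 1 marks beta-catenin for degradation. With a ligand, Dishevelled blocks that complex, and beta-catenin enters the nucleus and drives target genes with TCF and LEF factors. R-spondins bind LGR receptors and lift the action of the ubiquitin ligases RNF43 and ZNRF3, which remove Frizzled from the cell surface. In the liver, endothelial cells around the central vein release WNT ligands, and the pathway sets the pericentral programme of nearby hepatocytes.

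Promoter windows of 3 target genes are shown, searched for the DNA letters through which TCF and LEF factors are known to act. These genes were chosen after their values were seen: Lect2 for the highest ratio among the members above the floor in both arrays, Axin2 as the pathway's standard feedback target, and Sp5 as a target that was not above background. Each sequence is the 250 bases before the annotated start, from RefSeq on GRCm38.p6, read 5′ to 3′ on the gene's strand. Capitals mark CTTTG followed by AT, AA, TA or TT, on either strand. The Lect2 window is chr13:56548539-56548788 (minus strand), that of Axin2 is chr11:108920099-108920348 (plus strand), and that of Sp5 is chr2:70474673-70474922 (plus strand).
Lect2: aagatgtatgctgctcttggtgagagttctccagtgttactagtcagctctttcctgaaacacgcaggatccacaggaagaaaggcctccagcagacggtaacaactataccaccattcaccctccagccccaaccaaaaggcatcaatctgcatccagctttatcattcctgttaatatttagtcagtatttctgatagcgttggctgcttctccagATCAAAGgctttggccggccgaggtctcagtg
Axin2: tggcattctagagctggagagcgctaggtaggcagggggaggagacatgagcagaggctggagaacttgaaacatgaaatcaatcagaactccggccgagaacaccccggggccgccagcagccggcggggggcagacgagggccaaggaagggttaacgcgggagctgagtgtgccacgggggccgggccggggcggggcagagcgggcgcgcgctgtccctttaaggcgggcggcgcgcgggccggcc
Sp5: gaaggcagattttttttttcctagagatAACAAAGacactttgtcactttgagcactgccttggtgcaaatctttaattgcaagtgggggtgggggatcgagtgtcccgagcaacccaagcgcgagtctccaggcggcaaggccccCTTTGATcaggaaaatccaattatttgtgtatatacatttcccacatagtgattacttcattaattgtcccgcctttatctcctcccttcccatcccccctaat

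The Lect2 window held ATCAAAG, the reverse complement of CTTTGAT, at 32 to 26 bases before the start. The Sp5 window held CTTTGAT at 104 to 98 bases and AACAAAG, the reverse complement of CTTTGTT, at 222 to 216 bases before the start. The Axin2 window held none of the 4 forms. Over whole windows of 300 bases (250 before and 50 after the start), at least 1 form was found in 7 of 41 windows of the members (17.1%), which cover 30 genes, and in 16.9% of all 32851 windows. The share among the members was therefore near that of all promoters. The single forms were found in 3.73% (CTTTGAT), 5.14% (CTTTGAA), 3.63% (CTTTGTA) and 5.85% (CTTTGTT) of all windows. A match is a description of letters and not a measured binding site.

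The arrays report a signal intensity for each probe set on a linear scale, and the 2% trimmed mean was 500.0 in both, so the arrays share 1 overall scale. Genes for smell, taste and pheromone receptors, most of which hepatocytes are not known to use, gave 84 probe sets. Their 95th percentile served as the background floor. It was 276.6 in the negative array and 334.04 in the positive. Each gene is represented by its brightest probe set. Where 2 signals are given, that of the negative array comes first, and ratios are of the positive over the negative array. Where only 1 array exceeded its floor, the dim signal was raised to the floor and the ratio is a bound ("at least"). The error at hand is technical: in the 3122 genes for which 2 or more probe sets exceeded both floors, the brightest pair gave log2 ratios that differed with an SD of 0.41. Of those genes, 2.59% differed by 2-fold or more. The probe sets of a pair were read on the same 2 arrays, so this SD leaves out variation between arrays and animals. Neither of the 2 Ezr probe sets exceeded a floor, so they gave no check of the sort. The hepatocyte label was borne out by its markers, with 9 of 9 measured genes of the list, Alb, Ttr and Hnf4a among them, above the floor in both arrays.

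Of the 49 members, 32 exceeded the floor in both arrays, 1 only in the positive, 3 only in the negative and 13 in neither. At least 2-fold higher signals in EzrinT567D positive hepatocytes were found for 4 members, namely Lect2, Tbx3 and Lrp5 as measured ratios and Rnf43 as a bound. They are 11.1% of the 36 members above a floor, where 1.14% of all 9849 such genes were 2-fold higher. No member was 2-fold lower, against 0.599% of all genes. At 1.5-fold, 8 members (22.2%) were higher, with Axin2, Fzd8, Bcl9 and Bcl9l added, against 6.15% of all genes. At that fold 2 members (5.56%), Axin1 and Tcf7l1, were lower, against 4.11% of all genes. Over the 32 members measured in both arrays the median log2 ratio was 0.10, with 19 higher and 13 lower. Over all 8239 such genes the median was 0.00, with 49.8% higher and 50.2% lower. The 2-fold differences thus lay in 4 single members.

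**Figure D1:**
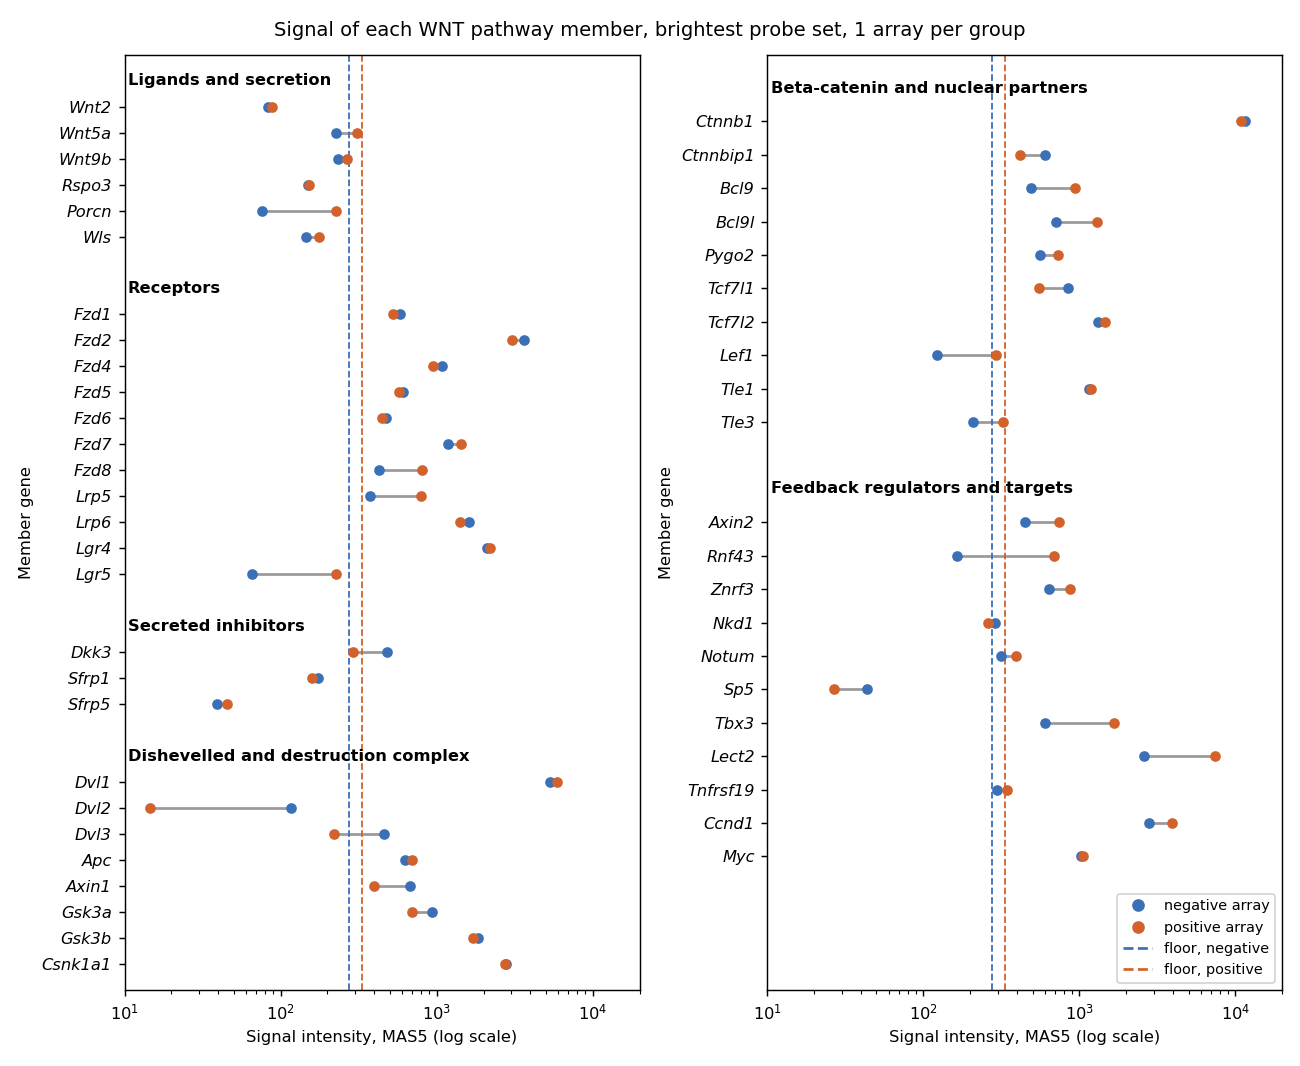
Signal intensity (log axis) of the brightest probe set of each of the 49 members, by role, in the negative (blue) and positive (orange) array, 1 array each, with dashed lines at the floors of 276.6 and 334.04. Each point of the 6 ligand and secretion genes lies left of the floor of its own array. Lect2, Tbx3, Lrp5 and Rnf43 show wide gaps with the positive array to the right.

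The target and feedback group held the highest ratios. Of its 11 genes, 8 exceeded the floor in both arrays, and each of these 8 was on the higher side (49.8% of all genes were), with a median log2 ratio of 0.47 (1.39-fold). Lect2, a secreted hepatokine and known beta-catenin target in liver, read 2590.8 in the negative array and 7389.3 in the positive, a 2.85-fold higher signal. Its log2 ratio of 1.51 was above that of 99.9% of genes measured in both arrays. It rests on a single probe set, so it has no second reading within the gene.

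Tbx3, a T-box transcription factor downstream of beta-catenin, read 604.3 and 1659.0 in its brightest probe set (2.75-fold, log2 ratio 1.46). A second Tbx3 probe set read 469.3 and 882.3 (log2 ratio 0.91). Another read 168.7 and 401.2, past the floor in the positive array alone. The 2 Tbx3 probe sets above both floors were thus on one side. The spread of 0.55 between them was wider than the SD between probe sets. The probe set past the floor in the positive array alone could only be higher, so it adds no agreement.

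Of the negative feedback genes, Axin2, a scaffold of the destruction complex that the pathway itself induces, read 449.1 and 743.7 (1.66-fold, log2 ratio 0.73, above 97.1% of genes). Its other probe set read 121.0 and 180.8, below both floors. Rnf43, which clears Frizzled from the membrane, read 164.5 and 689.6. The negative signal lay below the floor, so the difference is at least 2.49-fold (a log2 bound of 1.32). Znrf3, the partner of Rnf43 in that function, read 636.1 and 873.0 (log2 ratio 0.46), and its second probe set read 241.4 and 322.6, below both floors. Both ubiquitin ligase genes and Axin2 were therefore higher in the positive array. Notum, which encodes a secreted enzyme that inactivates WNT ligands, read 314.3 and 389.7 (log2 ratio 0.31). Nkd1, which binds Dishevelled and dampens the signal, read 288.2 and 260.0. It was past the floor in the negative array alone, and the floor of the positive array allows no fold in either direction. Notum thus stayed near the floor and inside the SD between probe sets, and Nkd1 could not be placed. Sp5, a zinc finger factor induced by the pathway, read 43.5 and 26.9, below both floors.

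Among targets shared with other pathways, Ccnd1, the gene of cyclin D1, which drives entry into the cell cycle, read 2785.2 and 3906.4 (1.40-fold, log2 ratio 0.49). The ratio was above that of 91.8% of genes measured in both arrays. Its other probe sets had log2 ratios of 0.54 and 0.44, so all 3 lay within 0.10 of each other. Myc, a growth-promoting transcription factor, read 1029.5 and 1046.8 (log2 ratio 0.02), nearly the same in the 2 arrays. Tnfrsf19, a receptor of the TNF receptor family, read 294.8 and 342.3 (log2 ratio 0.22), close to the floor in each array.

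**Figure D2:**
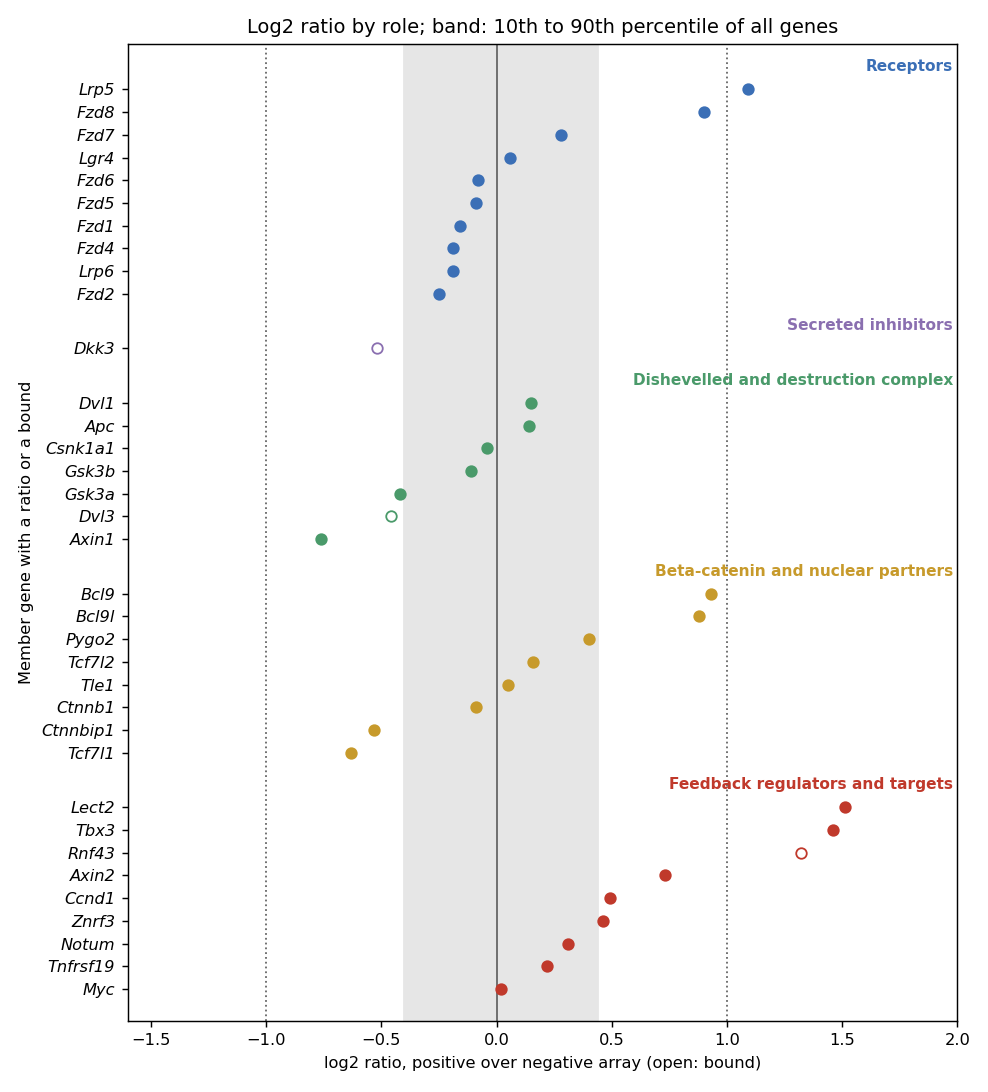
Log2 ratio (positive over negative array) for the members with a ratio (filled) or a bound (open), by role; the grey band spans the 10th to 90th percentile of all genes (-0.40 to 0.44) and dotted lines mark 2-fold. Lect2, Tbx3, Rnf43 and Lrp5 lie beyond the right dotted line, and no member lies beyond the left one.

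These higher targets moved beside a wider difference between the zones of the liver lobule. Among 17 measured pericentral genes outside the member list, 16 had a higher signal (49.8% of all genes did) and 1 a lower signal. The signal was at least 2-fold higher in 9 (52.9%), against 1.14% of all genes above a floor. The median log2 ratio was 1.05. The largest were Slc13a3, a dicarboxylate transporter (311.9 and 1098.8, log2 ratio 1.82), Gulo, which makes vitamin C (1549.4 and 5401.6, 1.80), the glutathione transferase Gstm3 (1.74) and the vasopressin receptor Avpr1a (1.65). Of 18 measured periportal genes, 17 were lower and 1 higher, 9 of them by 2-fold, with a median of -1.07. Aldh1b1 (-2.15), the histidine-degrading enzyme Hal (-1.84), Etnppl (-1.74) and the glycine decarboxylase Gldc (-1.62) were the lowest. Both zonal lists were chosen with earlier results of these data known, so their counts are descriptions. The part of zonal position in the difference of the pathway targets was not tested. In sorted cells measured in bulk, fewer cells of a type and less RNA per cell cannot be told apart.

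Immediate early genes, which tissue dissociation and many growth stimuli induce, moved the same way. Of 15 measured in both arrays, 13 lay on the higher side, where 49.8% of all genes lay, and 2 on the other. At least 2-fold higher signals were found for 5 (33.3%), against 1.14% of all genes above a floor. For this list the median log2 ratio came to 0.44. Maff (851.8 and 2252.6, log2 ratio 1.40), Klf6 (1.24), Ier2 (1.23) and Atf3 (1.22) had the largest ratios. Their part in the difference of Ccnd1 was not tested.

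The 6 ligand and secretion genes among the members were not above background. Wnt2 (83.7 and 88.1), Wnt9b (232.8 and 266.0) and Rspo3 (149.3 and 153.0), which central vein and sinusoidal endothelium is known to supply, were below both floors. So were Wnt5a, a ligand of beta-catenin-independent signalling (227.5 and 311.4), and Wls, the carrier that brings WNT proteins to the cell surface (146.0 and 175.7). Porcn, which attaches the lipid that WNT proteins need, read 76.2 and 225.2. With both signals under the floor, no fold is given for any of these 6 genes. Of 10 endothelial markers, 8 exceeded the floor of the negative array and 7 that of the positive, and their summed signal was 6038.6 and 6183.0. Pecam1 and Lyve1 were below both floors, and no marker was listed at 0. Stellate cell and fibroblast markers summed to 3653.3 and 3456.0, with 6 of 10 above the floor in each array and Des, Pdgfrb and Hgf below both. Macrophage markers exceeded the floor in 4 of 10 cases in the negative and 2 of 10 in the positive array, cholangiocyte markers in 2 and 1 of 7, and leukocyte markers in 1 of 7 in each. Endothelial signal was thus present at similar summed levels in both arrays. Single endothelial markers above both floors varied, with log2 ratios from -0.36 (Egfl7) to 0.84 (Cdh5) and a median of 0.11.

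Most receptor genes were measured in both arrays, with small ratios. Of 11 genes, 10 exceeded the floor in both arrays, 4 higher and 6 lower, with a median log2 ratio of -0.08. Lrp5, a WNT co-receptor, read 372.4 and 790.7 (2.12-fold, log2 ratio 1.09, above 99.3% of genes), from a negative signal close to the floor and in a single probe set. With 100 added to both signals its log2 ratio was 0.91, under 2-fold. Lrp6, the other co-receptor, read 1619.1 and 1420.5 (log2 ratio -0.19), and its second probe set read 557.2 and 347.0 (-0.68). Both Lrp6 probe sets were on the lower side, the brighter one inside the SD between probe sets.

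Among the Frizzled genes, Fzd8 read 428.7 and 802.3 (1.87-fold, log2 ratio 0.90, above 98.5% of genes), with a second probe set at 210.9 and 181.3 below both floors. Fzd7 read 1183.2 and 1432.8 (0.28). The brightest probe sets of the other 5 were lower by small amounts. Fzd2 read 3614.5 and 3040.4 (log2 ratio -0.25), Fzd4 1085.2 and 952.8 (-0.19), and Fzd1 585.9 and 523.0 (-0.16). A second Fzd4 probe set was past the floor in the positive array alone and higher there (243.9 and 346.6), so Fzd4 is given no direction. Fzd5 read 611.8 and 575.8 (log2 ratio -0.09) and Fzd6 471.0 and 446.4 (-0.08). Apart from Fzd8, every Frizzled ratio of a brightest probe set lay inside the SD of 0.41 between probe sets. Lgr4, an R-spondin receptor, read 2119.9 and 2212.1 (log2 ratio 0.06). Lgr5, the R-spondin receptor that marks pericentral hepatocytes, read 66.0 and 228.2 in one probe set and 81.4 and 159.6 in the other. Both readings were below both floors, so no fold is given.

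Of the secreted inhibitors, Dkk3, a Dickkopf family member, read 478.3 and 292.2. It was past the floor in the negative array alone and at least 1.43-fold lower in the positive (a log2 bound of -0.52). With the 99th percentile floor that bound shrank to -0.17. The other Dkk3 probe set read 49.9 and 54.6, below both floors. Sfrp1 (173.1 and 159.7) and Sfrp5 (39.4 and 45.4), which bind WNT ligands outside the cell, were below both floors.

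In the cytoplasm, the members of the destruction complex and the Dishevelled genes did not share a direction. Of 8 genes, 6 exceeded the floor in both arrays, 2 higher and 4 lower, with a median log2 ratio of -0.07. Axin1, the scaffold that assembles the complex, had the lowest ratio of all members measured in both arrays. It read 673.9 and 398.5 (1.69-fold lower, log2 ratio -0.76, with 1.61% of genes lower still), and its second probe set read 125.0 and 181.5, below both floors. Axin1 and its feedback-induced relative Axin2 thus differed in opposite directions. Gsk3a, a kinase that phosphorylates beta-catenin, read 933.3 and 699.7 (log2 ratio -0.42).

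The other kinase gene, Gsk3b, had 3 probe sets past both floors, with log2 ratios of -0.11 (1834.2 and 1700.5), 0.44 and 0.11. Apc, the large scaffold lost in many colon tumours, had ratios of 0.14 (629.1 and 695.2) and -0.36. Csnk1a1, the kinase that primes beta-catenin, had ratios of -0.04 (2803.8 and 2726.6), -0.14 and 0.31. Probe sets of these 3 genes differed in sign, so no direction is given for them. Dvl1 read 5344.1 and 5914.8 (log2 ratio 0.15), with 0.41 in its second probe set. Dvl3 read 458.5 and 220.2, past the floor in the negative array alone and at least 1.37-fold lower in the positive. Dvl2 read 117.1 and 14.6, below both floors. Of these Dishevelled genes, which relay the receptor signal, Dvl1 had a ratio within the SD between probe sets in its brightest probe set. The bound of Dvl3 shrank to a log2 value of -0.11 with the 99th percentile floor.

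**Figure D3:**
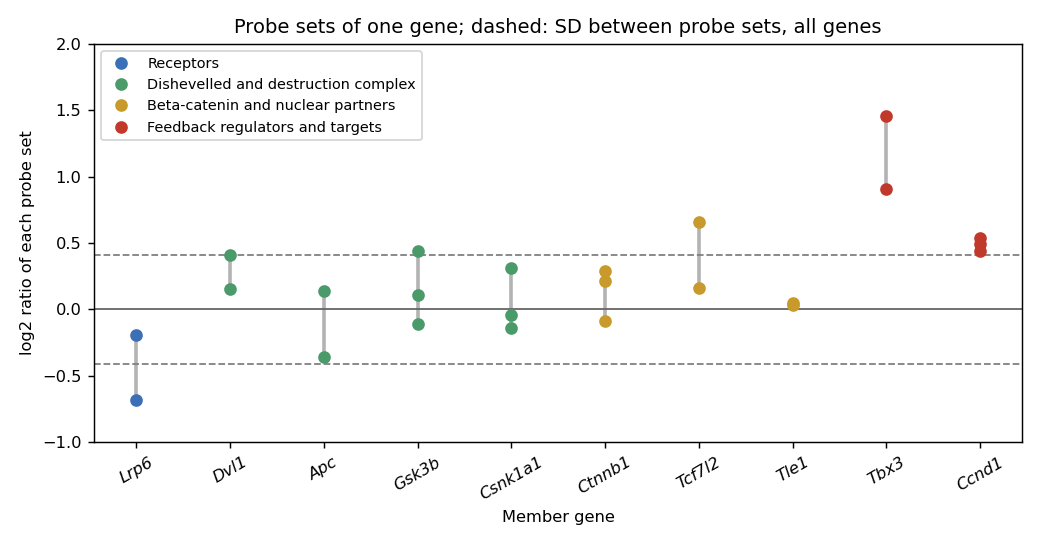
Log2 ratio of each probe set above the floor in both arrays, for the 10 members with at least 2 such probe sets; dashed lines mark the SD of 0.41 between probe sets over all genes. The points of Tbx3 and Ccnd1 all lie above the upper dashed line, while those of Apc, Gsk3b, Csnk1a1 and Ctnnb1 fall on both sides of 0.

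Ctnnb1, the gene of beta-catenin itself, showed no clear difference in its RNA. Its brightest probe set read 11452.2 and 10786.8 (log2 ratio -0.09), and the others read 1346.5 and 1558.5 (0.21) and 607.4 and 742.0 (0.29). Arrays measure RNA, so the stability and location of the protein, through which the pathway acts, were not measured.

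Of the 10 measured genes in the nuclear group, 8 exceeded the floor in both arrays, 5 higher and 3 lower, with a median log2 ratio of 0.10. The 3 co-activator genes among the members were on the higher side, Pygo2 inside the SD between probe sets. Bcl9 read 491.9 and 936.7 (1.90-fold, log2 ratio 0.93) and its relative Bcl9l 710.0 and 1303.1 (1.84-fold, 0.88), above 98.7% and 98.3% of genes. Pygo2, which BCL9 proteins recruit, read 555.3 and 732.0 (log2 ratio 0.40). The second probe set of Bcl9 (7.6 and 27.0) and the others of Bcl9l (239.2 and 314.5, 139.4 and 11.4) were below both floors. Ctnnbip1, an inhibitor that keeps beta-catenin from TCF factors, read 604.3 and 418.4 (1.44-fold lower, log2 ratio -0.53), with 5.41% of genes lower still. Bcl9 and Bcl9l thus lay on the other side of 0 from this inhibitor gene, in a group with a median near 0.

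Among the DNA-binding partners, Tcf7l1, often a repressor, read 843.0 and 546.4 (1.54-fold lower, log2 ratio -0.63). The second Tcf7l1 probe set read 104.6 and 138.8, below both floors. Tcf7l2, the main TCF factor of adult hepatocytes, read 1307.4 and 1456.9 (0.16) in one probe set and 922.1 and 1456.7 (0.66) in another, on the higher side in both. Lef1 read 122.8 and 293.4, below both floors. Of the Groucho co-repressors that TCF factors recruit, Tle1 read 1155.0 and 1193.7 (log2 ratio 0.05), with 0.03 in its second probe set. Tle3 read 209.1 and 322.5 in its brightest probe set, below both floors, and another probe set passed the floor in the negative array alone (284.5 and 220.9). Tle1 was thus nearly equal in the 2 arrays, and Tle3 could not be placed.

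Other genes of the pathway were taken from a list of 65 further ligands, receptors, inhibitors and cytoplasmic and nuclear factors, 64 of them with a probe set. Of the 30 above a floor, 0 were 2-fold higher and 0 were 2-fold lower, against 1.14% and 0.599% of all genes. Over the 25 measured in both arrays, 12 were higher and 13 lower, with a median log2 ratio of -0.01. The largest ratios were those of Prickle1, a planar cell polarity gene (492.1 and 857.1, log2 ratio 0.80), Kremen1, a receptor for Dickkopf inhibitors (448.4 and 745.7, 0.73), the phosphatase subunit gene Ppp2r1a (5336.7 and 3358.7, -0.67) and the chromatin remodeller Smarca4 (979.7 and 1371.7, 0.49). Rspo2, an R-spondin ligand, exceeded the floor only in the positive array (259.0 and 521.2, at least 1.88-fold), and so did Wnt4 (263.3 and 378.5, at least 1.37-fold). The ligand genes Wnt6 (454.4 and 379.4), Wnt3a (359.4 and 427.5) and Wnt11 (390.5 and 352.9) exceeded the floor in both arrays. This wider set thus lay near the level of all genes.

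**Figure D4:**
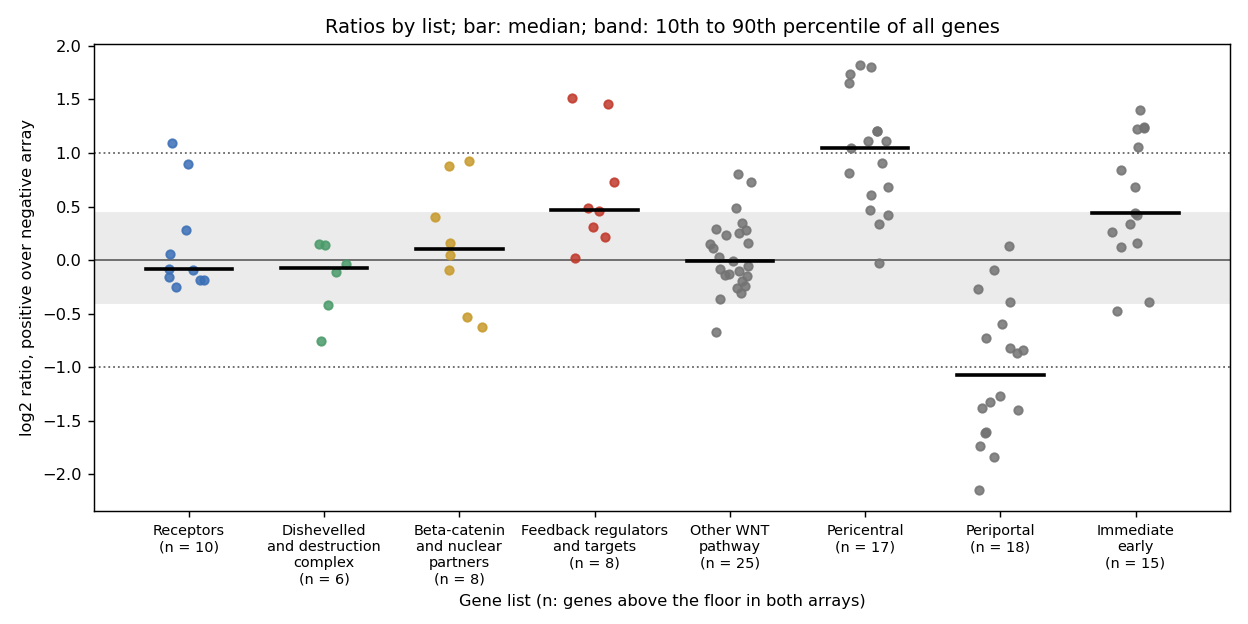
Log2 ratios of genes above the floor in both arrays, by list, with the median as a bar, the 10th to 90th percentile of all genes as a grey band and 2-fold as dotted lines. Medians are -0.08 for receptors, -0.07 for the destruction complex group, 0.10 for the nuclear group, 0.47 for targets, -0.01 for other pathway genes, 1.05 for pericentral, -1.07 for periportal and 0.44 for immediate early genes.

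Of the 119 member probe sets, 46 exceeded the floor in both arrays, 30 of them higher (52.1% of all such probe sets were) and 16 lower, while 62 were below both floors. Among the 10 members with at least 2 probe sets above both floors, 6 had all on one side and 4 differed in sign. Those on one side were Tbx3, Ccnd1, Tcf7l2, Dvl1 and Tle1 (higher) and Lrp6 (lower). Lect2, Rnf43, Lrp5, Bcl9, Bcl9l, Fzd8, Axin1 and Axin2 each rest on 1 probe set above a floor.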

How the data were processed

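RNA from 1 sample of EzrinT567D negative and 1 of EzrinT567D positive hepatocytes was measured on Affymetrix Mouse Genome 430 2.0 arrays. The authors made the deposited intensities, 1 linear value per probe set, with MAS5, per the submitters' processing notes. Its version is not given in the sources used here. Scaling to one overall level hides any shift of the whole transcriptome, and ratios varied with signal, with a median log2 ratio of 0.08 in 4310 genes of mean signal up to 1000 and -0.13 in 349 genes above 10000. Gene symbols came from the platform annotation. All 49 members matched RefSeq by Entrez ID, and 932 probe sets with several symbols and 9160 with none were left out.

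Floors, bounds, log2 ratios and counts at 2-fold (1.5-fold as an alternative) were computed in Python 3.11.15 with pandas 2.3.3 and statsmodels 0.14.6. The calculation was run on simulated data as a check of the code. Changes were planted there only in genes well above the floors, so the simulation does not cover ratios near a floor. The number of arrays limits the precision. Each member above a floor is named with both signals. The 4 largest ratios of each comparison list are named too. The members and lists were chosen with earlier results of these data known, so their counts are descriptions.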

Additional observations from a re-analysis of the deposited data

How the results depend on the processing

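Of 10 other ways of setting the floor, choosing probe sets, scaling or adding an offset, all kept Rnf43 and Tbx3 at least 2-fold higher. Lrp5 fell under 2-fold with an offset of 100 (log2 ratio 0.91), and Lect2 has no value without _s_at, _x_at and _a_at probe sets. Members 2-fold higher numbered 7 with no floor, where 8.95% of all genes were, and 8 at 1.5-fold (6.15% of all genes). Members 2-fold lower numbered 2 of 49 with no floor (Dvl2 and Dvl3), where 9.1% of all genes were, and 2 at 1.5-fold (4.11% of all genes). They numbered 1 (Dvl3, log2 ratio -1.06) with a floor at each array's median signal (1.25% of all genes) and with a filter on mean signal (1.12%). All genes 2-fold higher and lower numbered 112 and 59 in the report's setting, 62 and 41 with the offset, and 1629 and 1655 with no floor. Loess correction gave 92 and 67, and 1 floor for both arrays 96 and 66. The median of the target group ran from 0.44 to 0.61 and that of all members from 0.06 to 0.14. That of the nuclear group ran from 0.09 to 0.28 and that of other WNT pathway genes from -0.05 to 0.15. Of 90 medians, 0 moved by the SD between probe sets or more. Several medians were smaller than that SD, so this count could not show a change of their sign. Of 349 member ratios under the alternatives, 6 moved by more than that SD, 3 for Rnf43 and 3 for Dvl3. No member called 2-fold in the report's setting changed sign. Some smaller ratios did, those of Apc (-0.11 to 0.14), Ctnnb1 (-0.09 to 0.14), Gsk3b (-0.11 to 0.15) and Csnk1a1 (-0.14 to 0.04). No paired analysis was possible because each group holds 1 array, and for the same reason no array could be left out. Signal over background limits Rnf43, Dvl3 and Dkk3, each past the floor in 1 array. Their log2 values ran from 1.02 to 2.07, from -1.06 to -0.11 and from -0.71 to -0.17.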
